A study of Mus musculus with 6 samples.

Results

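Pou3f4, Sp9, Sp8, Mab21l2 and Bcl11b are 5 developmental regulators of transcription, named together as candidates for restriction to red-labelled lung stromal cells. Those with a row were selected on their counts in these same libraries, in which earlier results of these data had found their transcripts in red-labelled cells and hardly in green-labelled ones. All were looked up in the deposited gene table by gene name, and 4 of the 5 have a row among the 20645 genes of the table; Sp8 is not listed and so has no counts. The counts in mG and mT libraries chose these genes, so their difference between the groups is described here without a test. Bulk RNA was sequenced from lung mesenchymal stromal cells, dissociated for flow cytometry, of C57BL/6 mice carrying Tbx4-rtTA/TetO-Cre/mT-mG. In these mice a reverse tetracycline transactivator under Tbx4 control drives Cre when doxycycline is present, and Cre switches a membrane reporter from red TdTomato (mT) to green fluorescent protein (mG). Every mouse received doxycycline from embryonic day 6.5 to postnatal day 1. The mG group (3 libraries) is cells with the green membrane protein, as left by Cre in a cell or its ancestors, and the mT group (3 libraries) is cells with the red one, of the same genotype, strain and treatment. The age at isolation is not given in the labels used here, and no label ties the replicates to separate mice. A p-value therefore reflects only how far these libraries scatter, which could be technical.

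Pou3f4 is a POU-domain transcription factor best known from the mesenchyme around the inner ear, where its loss causes X-linked deafness. Sp8 and Sp9 are zinc finger factors of the Sp family, known from the ridge at the tip of the limb bud and from forebrain interneurons. Mab21l2 belongs to a family related to the nucleotidyltransferase fold of the DNA sensor Cgas, and is needed for eye and body wall development. Bcl11b is a zinc finger factor that works with the BAF chromatin remodelling complex and is best known from T cells, skin, tooth and neurons. None of the 5 is usually counted among the regulators of lung mesenchyme.

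The promoters of the 4 listed genes are shown because their transcripts were high in the same group of libraries. Each sequence runs from 250 bases before to 50 bases after the start of the gene in RefSeq (build GRCm38.p6), 5′ to 3′ on the strand of the gene. Pou3f4 (ENSMUSG00000056854) lies at chrX:110814129-110814428 on the plus strand, Sp9 (ENSMUSG00000068859) at chr2:73271676-73271975 on the plus strand, Mab21l2 (ENSMUSG00000057777) at chr3:86548234-86548533 on the minus strand and Bcl11b (ENSMUSG00000048251) at chr12:108003365-108003664 on the minus strand. Capitals mark matches to 4 motifs searched on both strands: the CCAAT box (CCAAT), the GC box (GGGCGG), the TATA box (TATAAA) and the octamer bound by POU proteins (written ATGCAAAT). A match is one of letters only, at any position, and whether it works in the promoter was not tested. No match overlapped another.
Pou3f4: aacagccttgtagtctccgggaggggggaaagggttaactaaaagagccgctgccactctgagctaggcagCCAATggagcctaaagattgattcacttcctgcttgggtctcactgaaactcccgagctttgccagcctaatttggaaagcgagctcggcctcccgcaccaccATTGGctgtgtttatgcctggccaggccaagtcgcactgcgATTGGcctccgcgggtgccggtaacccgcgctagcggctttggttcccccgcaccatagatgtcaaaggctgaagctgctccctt
Sp9: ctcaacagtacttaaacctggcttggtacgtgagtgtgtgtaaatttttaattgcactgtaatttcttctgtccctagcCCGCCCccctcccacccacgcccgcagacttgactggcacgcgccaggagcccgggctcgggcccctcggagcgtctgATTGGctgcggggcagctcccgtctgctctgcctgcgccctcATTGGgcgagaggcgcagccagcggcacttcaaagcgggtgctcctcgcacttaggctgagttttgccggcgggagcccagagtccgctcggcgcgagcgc
Mab21l2: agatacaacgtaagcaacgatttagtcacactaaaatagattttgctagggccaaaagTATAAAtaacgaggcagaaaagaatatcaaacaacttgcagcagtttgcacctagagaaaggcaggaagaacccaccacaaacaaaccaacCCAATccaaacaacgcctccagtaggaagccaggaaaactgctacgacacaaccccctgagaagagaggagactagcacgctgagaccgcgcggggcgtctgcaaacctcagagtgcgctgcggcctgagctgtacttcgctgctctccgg
Bcl11b: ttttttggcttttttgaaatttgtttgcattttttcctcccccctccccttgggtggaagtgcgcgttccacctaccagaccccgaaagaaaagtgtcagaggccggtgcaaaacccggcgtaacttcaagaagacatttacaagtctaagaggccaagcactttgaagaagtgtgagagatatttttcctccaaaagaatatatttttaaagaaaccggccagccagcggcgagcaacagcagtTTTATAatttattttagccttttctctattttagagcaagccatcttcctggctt
The Pou3f4 promoter holds 3 CCAAT boxes, which begin 179, 76 and 35 bases before the start, those at 76 and 35 on the opposite strand. The Sp9 promoter holds 2, at 93 and 51 bases before it, and a GC box at 171 bases, all on the opposite strand. The Mab21l2 promoter holds a CCAAT box at 101 bases and a TATA box match at 192 bases, both on the strand of the gene. The Bcl11b promoter holds only a TATA box match, on the opposite strand, 5 bases before the start. A CCAAT box occurs in 37.4% of all 32851 promoters of this length, a GC box in 35.7%, a TATA box in 13.6% and the octamer in 1.74%. The octamer is in none of the 4 windows. GC content is 57.7% for Pou3f4, 63.7% for Sp9, 49.7% for Mab21l2 and 43% for Bcl11b, beside a median of 52.7% over all promoters. With 15, 25, 14 and 9 CpG dinucleotides, in that order, all 4 lie above the median of 7.

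Total counts per library ran from 16853561 to 19429138, and 3 counts, taken as the floor for a gene without reads, correspond to 0.141 to 0.18 CPM (counts scaled to a common library size, the usual CPM of edgeR with TMM factors). Tbx4 itself, whose regulatory sequence drives the reporter, had 28.2 ± 20.5 CPM in mG and 5.97 ± 4.29 CPM in mT (SD, n = 3 each), with adjusted p = 0.343 in edgeR's quasi-likelihood test and 0.028 in the same test blocked on replicate number. All 12 mesenchymal stromal markers checked were listed, and together they held 12626 to 27711 CPM per mG library and 21879 to 25450 CPM per mT library, with mG replicate 2 the lowest. Leukocyte markers summed to 0.943 to 1.83 CPM in mG and 0.539 to 1.27 CPM in mT. Endothelial markers summed to 2.01 to 7.09 CPM in mG and 0.539 to 52.4 CPM in mT, with mT replicate 1 the highest and mT replicate 2 the lowest. Neuron and glia markers summed to 39.4 to 156 CPM in mG and 58.5 to 87.6 CPM in mT. The highest sum, that of mG replicate 2, was mostly S100b, at 108 CPM. Tubb3 held 25.8 to 52.7 CPM per mG library and 51.2 to 75.9 CPM per mT library. Stmn2 reached 2.67 CPM at most in mG and 9.12 CPM in mT, and Syt1 reached 2.36 CPM in mG and 0.304 CPM in mT. Sox10, Snap25 and Elavl3, also on this list, had no row. Of 10 epithelial markers 7 were not listed, Epcam and Cdh1 among them, and the rest summed to 0.763 to 3.98 CPM in mG and 1.8 to 3.35 CPM in mT. Skeletal muscle markers, nearly all of it Acta1, summed to 14.1 to 48.3 CPM in mG and 34.8 to 187 CPM in mT, while the muscle regulators Myod1, Myf5, Pax7 and Myog were not listed. Mesothelial markers summed to 5.01 to 64.5 CPM in mG and 6.41 to 12.4 CPM in mT. The part of these other cell types in the results was not tested.

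Pou3f4 was the most abundant of the 4 genes. It had 2, 6 and 1 counts in mG replicates 1 to 3, that is 0.109, 0.281 and 0.0589 CPM. In mT it had 884, 923 and 660 counts in replicates 1 to 3, that is 44.8, 55.3 and 39.6 CPM. The groups did not overlap, and the 3 mT libraries lay close to each other, the highest 1.4 times the lowest. Means were 0.15 ± 0.117 CPM in mG and 46.5 ± 8 CPM in mT (SD, n = 3 each), a log2 fold change of -8.15 ± 0.44 (SE). From summed counts, the mG level was 0.342% of the mT level, with a 95% exact counting interval of 0.156% to 0.651%. Of the 9 reads in mG, 6 came from replicate 2, and without that library the log2 fold change was -8.99. In bulk samples, fewer cells with a transcript and less of it per cell cannot be told apart, here and in what follows.

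Sp9 had 0, 0 and 2 counts in mG replicates 1 to 3, against 239, 366 and 430 counts in mT replicates 1 to 3. All reads in mG came from replicate 3, and each mT library was above 12 CPM. In CPM the mT values were 12.1, 21.9 and 25.8, with a mean of 19.9 ± 7.04 CPM (SD, n = 3), and the mG mean was 0.0393 ± 0.068 CPM. The mG level was 0.181% of the mT level, with a 95% exact counting interval of 0.0219% to 0.656%. Sp8, its closest relative, is not listed, so no value can be given for it.

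Mab21l2 had 0, 2 and 0 counts in mG replicates 1 to 3, against 149, 134 and 294 counts in mT replicates 1 to 3. In CPM the mT values were 7.55, 8.02 and 17.6, so that mT replicate 3 stood above the other 2, and the mT mean was 11.1 ± 5.68 CPM beside 0.0312 ± 0.0541 CPM in mG. The mG level was 0.325% of the mT level, with a 95% exact counting interval of 0.0393% to 1.18%. The deposited table lists this gene as a processed pseudogene, while the reference annotation has it as protein coding. It lies inside Lrba, a large gene on the opposite strand that encodes a protein of vesicle trafficking, and the libraries do not keep strand, so reads from the 2 genes cannot be told apart where they overlap.

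Bcl11b was the rarest. It had 0, 1 and 0 counts in mG replicates 1 to 3, against 38, 80 and 37 counts in mT replicates 1 to 3. In CPM the mT values were 1.92, 4.79 and 2.22, with mT replicate 2 the highest, and the mT mean was 2.98 ± 1.58 CPM beside 0.0156 ± 0.027 CPM in mG. The mG level was 0.605% of the mT level, with a wide 95% exact counting interval of 0.0152% to 3.42%. The residual shares of the 4 genes in mG are not compared with each other, since they rest on 1 to 9 reads and the genes were chosen for them. The intervals cover counting error only, and the reads carry no molecular identifiers.

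**Figure D1:**
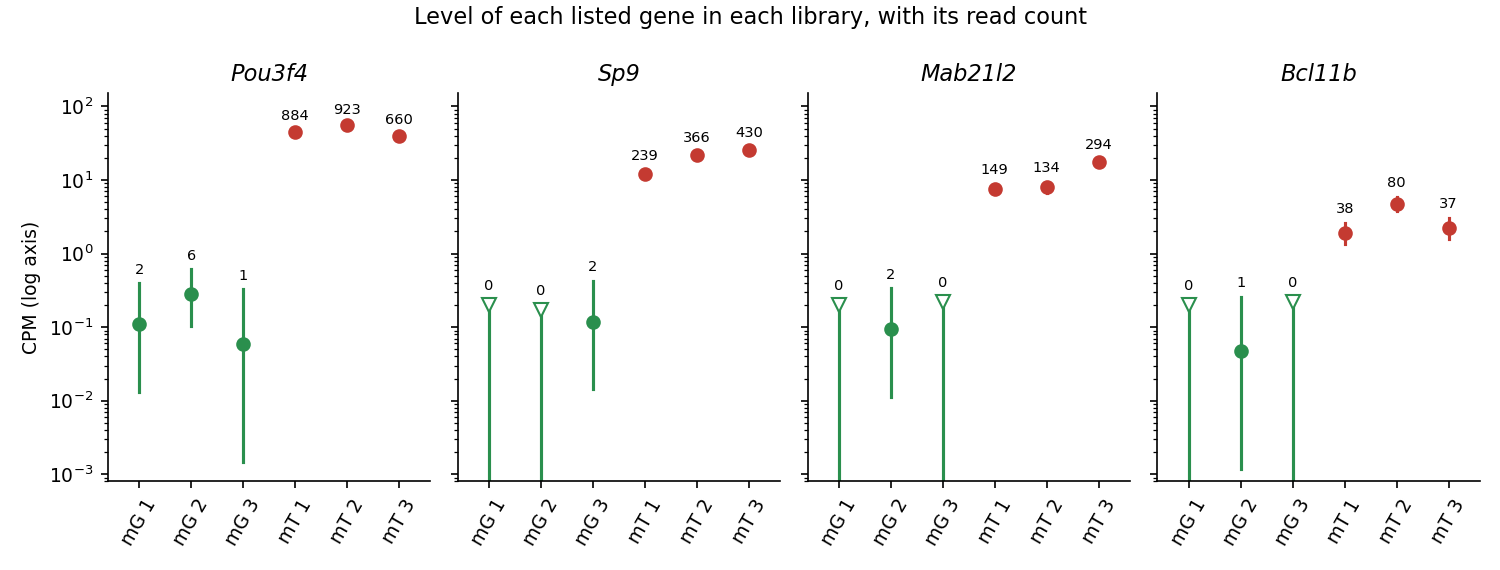
CPM on a log axis of Pou3f4, Sp9, Mab21l2 and Bcl11b in each of the 3 mG libraries (green) and 3 mT libraries (red), with bars for the 95% exact Poisson interval of the count, which is printed above each bar. Open triangles stand at the upper limit of libraries with 0 counts; every mT value of each gene lies above all of its mG values.

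The 4 listed genes did not overlap between the groups. Among all 13566 genes tested, 20.8% did not overlap in either direction and 10.8% with mG the lower group, and 0.177% had an mG mean at least 100-fold below the mT mean, as these 4 had. These shares are given as background only, since the same contrast chose the genes. Ordered by fitted log2 fold change from the largest decrease, Sp9 was number 5, Pou3f4 number 7, Mab21l2 number 9 and Bcl11b number 19 of the 13566 genes. The fitted values of Sp9, Mab21l2 and Bcl11b, -8.87, -8.06 and -6.94, rest on 1 or 2 reads in mG and depend on the prior count. In the authors' deposited table the log2 fold changes are -8.16 for Pou3f4, -8.87 for Sp9, -8.06 for Mab21l2 and -6.94 for Bcl11b. Their sheet is labelled as RUV and UQ normalized, not with the TMM used here, and comes from the same counts.

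**Figure D2:**
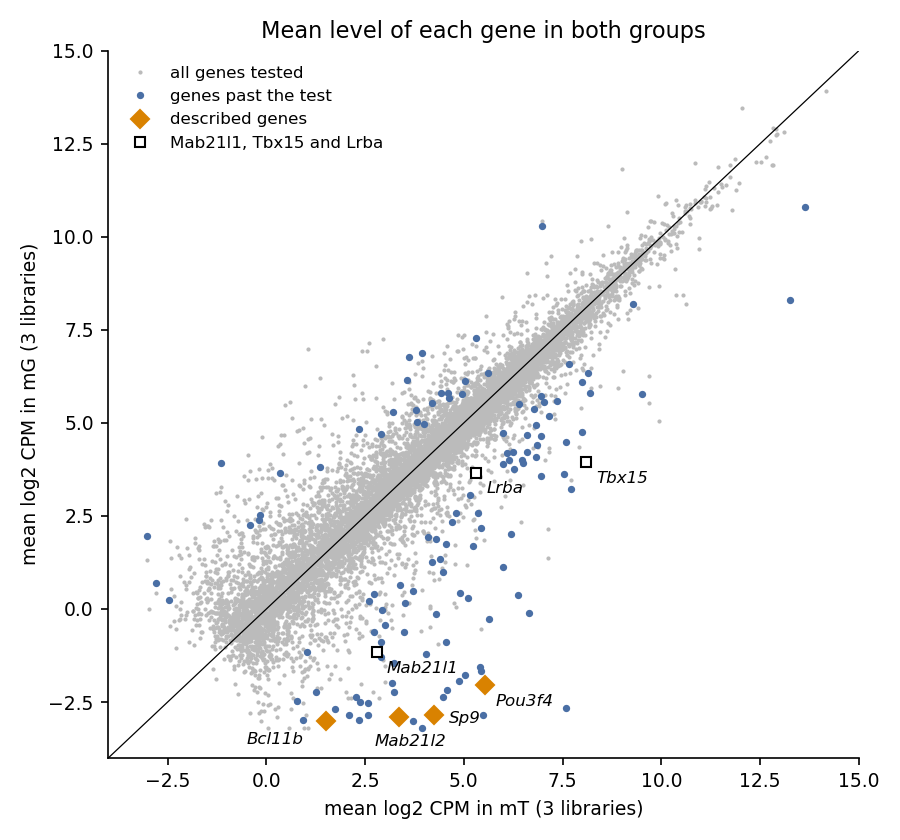
Mean log2 CPM (prior count 2) in mT (x axis) and in mG (y axis) of the 13566 genes tested, with the 123 genes past the test in blue the 4 listed genes as orange diamonds, and Mab21l1, Tbx15 and Lrba as open squares. All 4 lie along the lower edge of the cloud, at mG means near the lowest values shown, while their mT means spread from 2.98 CPM for Bcl11b to 46.5 CPM for Pou3f4.

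Per length, the order in mT was Pou3f4, Sp9, Mab21l2 and Bcl11b. On the authors' RPKM scale, which divides by the listed gene length, Pou3f4 had 0.0489 ± 0.0381 RPKM in mG and 15.2 ± 2.57 RPKM in mT, a level above that of 88.3% of tested genes in mT. Sp9 had 0.00725 ± 0.0125 RPKM in mG and 3.69 ± 1.32 RPKM in mT, above 63% of tested genes. Mab21l2 had 0.00566 ± 0.0098 RPKM in mG and 2.01 ± 1.04 RPKM in mT, above 47.8% of tested genes. Bcl11b had 0.0011 ± 0.00191 RPKM in mG and 0.211 ± 0.111 RPKM in mT, above 9.32% of tested genes (SD, n = 3 in each group). Sp9 was above Mab21l2 in each mT library, but their ranges over mT libraries, 2.24 to 4.79 RPKM and 1.37 to 3.21 RPKM, overlapped. The other neighbours in this order were separated by more than their spread.

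Within mT the genes were highest in different libraries. Pou3f4 and Bcl11b were highest in mT replicate 2, Sp9 and Mab21l2 in mT replicate 3. The coefficient of variation over mT libraries was 17.2% for Pou3f4, 35.4% for Sp9, 51.4% for Mab21l2 and 52.9% for Bcl11b. There were 3.7, 2.52 and 1.53 reads of Pou3f4 for each read of Sp9 in mT replicates 1 to 3. The 95% exact intervals of these ratios, for counting error only, were 3.2 to 4.28, 2.23 to 2.85 and 1.36 to 1.74. Relative to Mab21l2, Pou3f4 had 5.93, 6.89 and 2.24 reads per read, lowest in mT replicate 3. Variation between single libraries of a group was not tested.

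The relatives of these genes within their families were then compared in the same way. Of 29 genes of the POU, Sp, Mab21 and Bcl11 families other than the 5, 18 were listed and 13 tested. In edgeR's quasi-likelihood test 0 of the 13 passed a Benjamini-Hochberg adjusted p of 0.05, beside 0.907% of all genes tested (123 of 13566), of which 0.708% were lower and 0.199% higher in mG. At an unadjusted p under 0.05 there were 2, Sp2 higher and Mab21l1 lower in mG, beside 14.6% of all genes tested. DESeq2, limma-voom and the fit with the replicate number as a block called 0. Over all genes with an adjusted p, these 3 called 5.95%, 0.678% and 0.796%, in that order. The median log2 fold change of the 13 was -0.04, beside 0.02 over all genes tested.

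Mab21l1, the paralog of Mab21l2 that is likewise needed for the eye, came nearest to it. Its counts were 4, 52 and 0 over the 3 mG libraries, against 137, 116 and 109 counts in mT replicates 1 to 3. The mT libraries were alike at 6.53 to 6.94 CPM, the mG libraries ran from 0 to 2.44 CPM, and the groups did not overlap. Its log2 fold change was -2.90 ± 1.21 (SE) with adjusted p = 0.342 in edgeR's quasi-likelihood test. Without mG replicate 2, which holds nearly all its mG reads, the value was -5.84 with adjusted p = 0.0336. The 2 paralogs are similar in sequence, and how reads matching both were counted is not given in the sources used here. Mab21l3 had 1.72 ± 1.69 CPM in mG and 0.522 ± 0.367 CPM in mT (SD, n = 3 each), with a log2 fold change of 1.72, or 0.52 without mG replicate 2, and Mab21l4 had 0 to 1 counts in mG and 0 to 7 in mT. The more distant relatives Cgas, Mb21d2, Mief1 and Mief2, the last a pair that acts in mitochondrial division, had log2 fold changes of 0.38, -0.40, -0.12 and -0.04.

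Among the 6 listed POU genes, Pou3f4 had the highest level in each mT library on both scales used, but its share depended on the scale. Per length it held 2.61% to 6.62% of their summed RPKM in mG libraries and 90.9% to 91.8% in mT libraries. In CPM, without division by length, it held 0.246% to 0.645% in mG libraries and 49.4% to 52.6% in mT libraries. The listed length of Pou3f4, 2929 bases, is far below those of Pou2f1 and Pou6f1, 54269 and 28196 bases. Pou6f1 had 18.7 ± 11.1 CPM in mG and 34.3 ± 5.31 CPM in mT (SD, n = 3 each), with adjusted p = 0.391 in edgeR's quasi-likelihood test, or 0.0347 without mG replicate 2. The ubiquitous octamer factor Pou2f1 had 10.8 ± 2.09 CPM in mG and 9.09 ± 1.67 CPM in mT, with adjusted p = 0.747 in that test. Pou3f3, of the same class as Pou3f4, had 31, 9 and 13 counts in mG replicates 1 to 3, against 2, 0 and 6 in mT, higher in every mG library, and was too rare to be tested. Pou2f2 and Pou2f3 had at most 19 counts in any library. Pou1f1, Pou3f1, Pou3f2 and the Pou4 and Pou5 genes were not listed.

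Among Sp genes, Sp9 was one of several in mT. It held 0% to 0.177% of the summed RPKM of the 6 listed Sp genes in mG libraries and 14.8% to 27.5% in mT libraries. In CPM it held 0% to 0.0772% in mG libraries and 6.95% to 14% in mT libraries. The ubiquitous factor Sp1 had 5.28 ± 0.756 RPKM in mG and 5.52 ± 0.12 RPKM in mT, and its relative Sp3 had 4.82 ± 0.313 RPKM in mG and 4.88 ± 0.145 RPKM in mT (SD, n = 3 in each group). Their log2 fold changes were -0.06 and -0.02, and that of Sp4 was -0.16. Sp2 had 17.7 ± 0.999 CPM in mG and 13.3 ± 0.392 CPM in mT, with adjusted p = 0.293 in edgeR's quasi-likelihood test. Sp7, the osteoblast regulator osterix, had 0, 475 and 0 counts in mG replicates 1 to 3, against 28, 15 and 2 in mT, so its mG mean rests on replicate 2 alone. Sp5 and Sp6 were not listed. Bcl11a, the only paralog of Bcl11b, had no read in mG and 1, 0 and 1 counts in mT replicates 1 to 3.

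**Figure D3:**
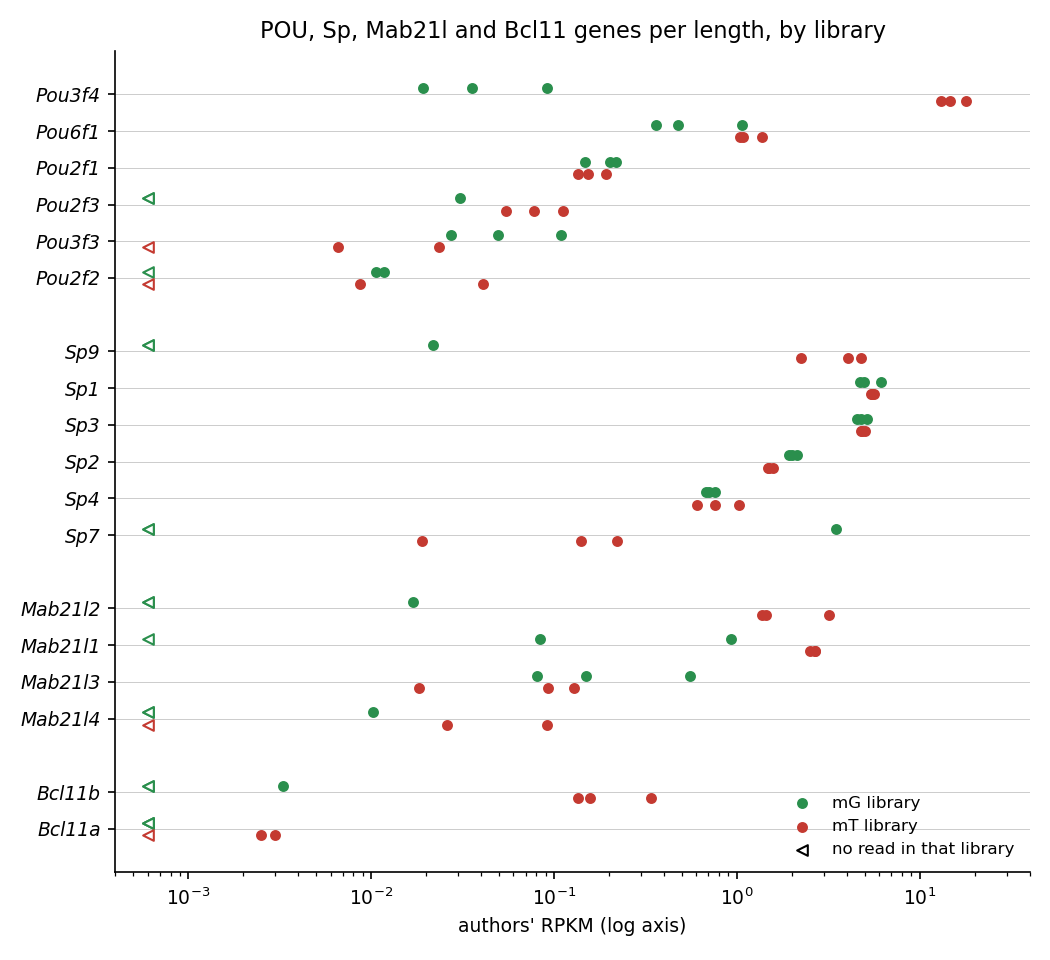
RPKM by the authors (log axis) of the listed POU, Sp, Mab21l and Bcl11 genes, with 1 point per library, mG in green above mT in red, and open triangles for libraries without a read. Pou3f4, Sp9, Mab21l2 and Bcl11b are drawn first in their blocks whatever their level, with the groups far apart. Sp1 and Sp3 coincide between the groups, and Mab21l1 is separated with a wide mG spread. By mean RPKM in mT, Sp9 (3.69) was below Sp1 (5.52) and Sp3 (4.88). Mab21l2 (2.01) was below Mab21l1 (2.62) by this mean, though not in mT replicate 3.

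The genes next to the 4 on their chromosomes were examined as a region-level comparison; this set was chosen after the data had been seen. It takes the nearest 2 named protein-coding genes on each side and any that overlap, by RefSeq order. Of 17 such genes 15 were tested, and 1 passed edgeR's quasi-likelihood test with Benjamini-Hochberg adjustment, beside 0.907% of all genes tested. It was Lrba, the gene that overlaps Mab21l2. The libraries do not keep strand, so reads of Mab21l2 could be counted in Lrba. This call is thus not independent of the counts that chose Mab21l2, and the share of such reads was not tested. Lrba had 10.6, 13 and 14.3 CPM in mG replicates 1 to 3, against 30, 37.2 and 54.8 CPM in mT replicates 1 to 3. Its log2 fold change was -1.68 ± 0.26 (SE) with adjusted p = 0.05 after rounding, and mT replicate 3 was highest, as for Mab21l2. Without any 1 library the adjusted p of Lrba in this test was 0.0542 to 0.157, and with limma-voom it was 0.0743, so the call was lost there. It was kept with the replicate number as a block, at adjusted p = 0.0415, and with DESeq2, at adjusted p = 5.57e-06. The other tested neighbours had log2 fold changes between -0.71 and 0.62, and of them Sh3d19, before Mab21l2, had adjusted p = 0.0364 when mG replicate 2 was left out. Sp3 and Ola1 before Sp9 had -0.02 and -0.42, Cir1 and Scrn3 after it -0.15 and -0.11. Papola and Vrk1 before Bcl11b had -0.19 and 0.62, Setd3 and Ccnk after it -0.14 and -0.08. Hmgn5 and Sh3bgrl before Pou3f4 had 0.07 and -0.36, while Cylc1 and Rps6ka6 after it were too rare to be tested.

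Genes associated with these regulators in other tissues were examined as lists. Of 57 tested genes on 6 such lists, 1 passed edgeR's quasi-likelihood test with Benjamini-Hochberg adjustment, lower in mG, beside 0.907% of all genes tested. At an unadjusted p under 0.05 there were 16, 9 lower and 7 higher in mG, beside 14.6% of all genes tested. The median log2 fold change of the 57 was -0.02, beside 0.02 over all genes. DESeq2 called 11 of them, limma-voom 1 and the blocked fit 1, beside 5.95%, 0.678% and 0.796% of all genes with an adjusted p in these fits. Without mG replicate 2 the quasi-likelihood test called 5, namely Tbx15, Rspo2, Nr2f2, Lhx9 and Runx3, beside 2.61% of all genes. Rspo2, outside the rule for named genes, was picked out after its values were seen.

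The gene that passed was Tbx15 on chromosome 3, a T-box factor of limb, craniofacial and otic mesenchyme. It had 127, 592 and 315 counts in mG replicates 1 to 3, against 4378, 4605 and 5456 counts in mT replicates 1 to 3. The groups were far apart, at 17.7 ± 10.4 CPM in mG and 275 ± 52.6 CPM in mT (SD, n = 3 each), but unlike the 4 listed regulators Tbx15 was plainly present in every mG library. Its log2 fold change was -3.95 ± 0.52 (SE) with adjusted p = 0.0314 in edgeR's quasi-likelihood test, and the adjusted p was 0.0231 to 0.142 when each library was left out in turn, above 0.05 without mG replicate 3 and without each mT library. Of the 8 tested genes of the otic mesenchyme list, 4 had an unadjusted p under 0.05, beside 14.6% of all genes tested. DESeq2 called 4 and limma-voom 1, beside 5.95% and 0.678% of all genes in these fits. The other 7 tested genes did not pass the quasi-likelihood test. Among them were Coch, which encodes an inner ear matrix protein, and Eya1, a transcriptional coactivator gene of ear development, both named after their values were seen. Coch had 0.455 ± 0.238 CPM in mG and 2.1 ± 0.633 CPM in mT, a log2 fold change of -2.19 with adjusted p = 0.137 in the quasi-likelihood test and 0.00784 in DESeq2. Eya1 had 7.05 ± 3.8 CPM in mG and 21.1 ± 5.54 CPM in mT, a log2 fold change of -1.58 with adjusted p = 0.211 in the quasi-likelihood test and 0.0222 in DESeq2. Epha4, a guidance receptor known as a target of Pou3f4 in the ear, had 33.2 ± 14.3 CPM in mG and 43.7 ± 14.4 CPM in mT, with adjusted p = 0.724 in the same test. Its ligand gene Efnb2 had 69.5 ± 17 CPM in mG and 36.5 ± 7.51 CPM in mT, with adjusted p = 0.152 in that test and 0.028 in DESeq2.

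None of 8 tested genes of the limb bud ridge list passed in edgeR's quasi-likelihood test, beside 0.907% of all genes tested. At an unadjusted p under 0.05 there were 2, beside 14.6%. DESeq2 called 1 and limma-voom 0, beside 5.95% and 0.678% of all genes in these fits. The most abundant were the FGF receptor gene Fgfr2 (166 ± 239 CPM in mG, 28.3 ± 13.3 CPM in mT), the ligand gene Wnt5a (60.3 ± 37.6 CPM in mG, 158 ± 14.7 CPM in mT) and Bmp4 (74 ± 79.9 CPM in mG, 128 ± 27.6 CPM in mT). The Fgfr2 mean in mG rests on replicate 2, with 398, 9421 and 576 counts in mG replicates 1 to 3. Without that library Fgfr2 had a mean of 27.8 CPM in mG and a log2 fold change of -0.04, against 2.55 with it. For Bmp4 the log2 fold change was -2.19 without mG replicate 2, against -0.79 with it. The ridge ligands Fgf8 and Fgf4 were not listed. None of 8 tested genes of the forebrain interneuron list passed, beside the same 0.907%. At an unadjusted p under 0.05 there were 2, beside 14.6%, and DESeq2 called 2 and limma-voom 0, beside 5.95% and 0.678%. The nuclear receptor gene Nr2f2 had 120 ± 26.3 CPM in mG and 59.5 ± 5.64 CPM in mT, with adjusted p = 0.0795 in edgeR's quasi-likelihood test, or 0.0268 without mG replicate 2. Tshz1 had 35.5 ± 8.86 CPM in mG and 66.1 ± 14.3 CPM in mT, and Nr2f1 had 12.2 ± 3.39 CPM in mG and 9.82 ± 0.824 CPM in mT. The GABA synthesis genes Gad1 and Gad2 were not listed.

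None of 5 tested genes of the eye and coelomic mesenchyme list passed in edgeR's quasi-likelihood test, beside 0.907% of all genes tested. At an unadjusted p under 0.05 there were 2, beside 14.6%. DESeq2 called 2 and limma-voom 0, beside 5.95% and 0.678% of all genes in these fits. The most abundant were Tbx18 (17.5 ± 4.35 CPM in mG, 18 ± 3.21 CPM in mT), the LIM homeobox gene Lhx9 (24.6 ± 13.3 CPM in mG, 6.41 ± 1.56 CPM in mT) and Mitf (9.12 ± 5.04 CPM in mG, 14.7 ± 4.37 CPM in mT). Lhx9 had adjusted p = 0.152 in the quasi-likelihood test, or 0.0232 without mG replicate 2. Tcf21, named after its values were seen, had 12.1 ± 7.94 CPM in mG and 0.533 ± 0.463 CPM in mT. Its log2 fold change of 4.47 was the highest of the 57 genes on the 6 lists. The adjusted p of Tcf21 was 0.147 in the quasi-likelihood test and 7.44e-05 in DESeq2. The eye field genes Six6 and Otx2 were not listed.

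For Bcl11b the lists were BAF complex subunits and T cell genes. None of 24 tested BAF subunits passed in edgeR's quasi-likelihood test, beside 0.907% of all genes tested. At an unadjusted p under 0.05 there were 3, beside 14.6%. DESeq2 called 1 and limma-voom 0, beside 5.95% and 0.678% of all genes in these fits. The catalytic subunit gene Smarca4 had 144 ± 16.8 CPM in mG and 147 ± 5.2 CPM in mT, Pbrm1 had 131 ± 19.1 CPM in mG and 127 ± 10.1 CPM in mT, and Smarcc2 had 131 ± 35.4 CPM in mG and 122 ± 5.81 CPM in mT (SD, n = 3 in each group). Fitted log2 fold changes of the 24 ran from -0.72 to 1.21. None of 5 tested T cell genes passed, beside the same 0.907%. At an unadjusted p under 0.05 there were 3, beside 14.6%, and DESeq2 called 1 and limma-voom 0, beside 5.95% and 0.678%. The T cell receptor genes Cd3e, Cd3d, Cd3g and Cd247 and the coreceptor genes Cd4 and Cd8a were not listed, and the pan-leukocyte gene Ptprc had 6, 2 and 1 counts in mG and 3, 0 and 3 in mT. Thy1, which stromal cells also express, had 236 ± 88.3 CPM in mG and 506 ± 216 CPM in mT. Tox had 7.4 ± 10.2 CPM in mG and 0.338 ± 0.0331 CPM in mT, and Runx3 had 4.32 ± 7.09 CPM in mG and 2.78 ± 0.509 CPM in mT, both with most mG reads in replicate 2. Without that library Tox had a log2 fold change of 2.13, against 4.43 with it. Without it Runx3 had a log2 fold change of -3.59 with adjusted p = 0.032 in the quasi-likelihood test, against 0.64 with it.

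**Figure D4:**
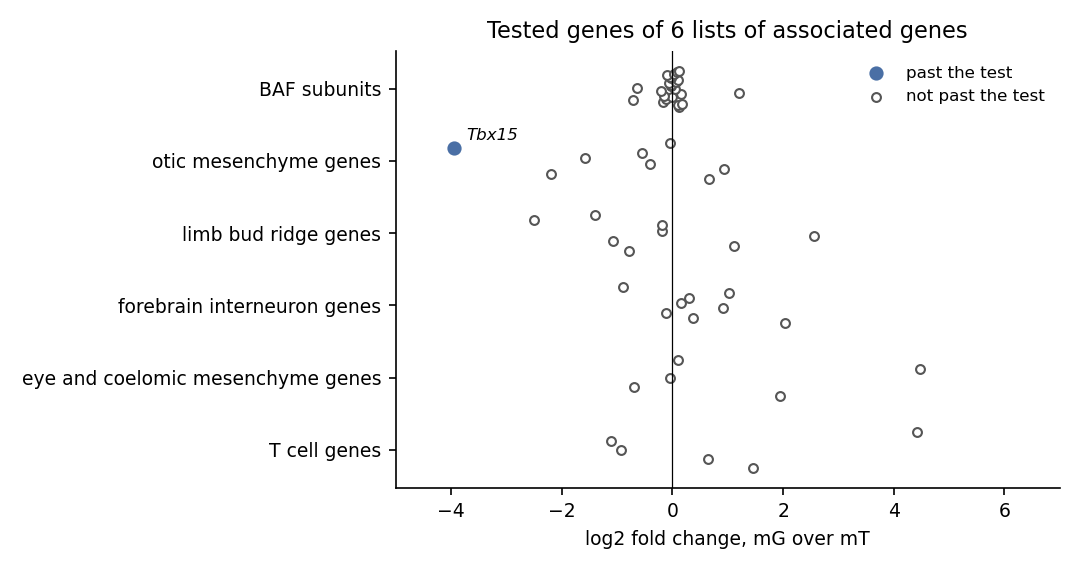
Log2 fold change, mG over mT, of the 57 tested genes on 6 lists of genes associated with the regulators (1 point per list and gene; Tbx18 stands on 2 lists). Tbx15 at -3.95 is the filled point, the only gene past the quasi-likelihood test at an adjusted p of 0.05, and the 24 BAF subunits cluster around 0.

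The genes whose level followed each regulator most closely over the 6 libraries were found by the root mean square difference of log2 CPM. Each gene was first centred on its mean. Predicted gene models, clone names and rows without a symbol were left out of this ranking. This likeness is a description over 6 libraries in 2 groups, and the group difference makes up most of it. The nearest to Pou3f4 was Dclk3, a doublecortin-like kinase gene, at 0.436, with 1, 6 and 1 counts over the mG libraries, against 477, 512 and 305 over the mT libraries. Alx4 and Meox2, homeobox genes of limb and body wall mesenchyme, followed at 0.583 and 0.596. The median over all tested genes was 3.81. The nearest to Sp9 were Alx4 at 0.484, the kinase gene Prkcq at 0.512 and Snap91, which encodes a clathrin assembly protein, at 0.563. Prkcq had no read in mG and 145, 491 and 270 counts in mT replicates 1 to 3. Alx4 had 3, 6 and 3 counts in mG and 425, 1052 and 969 in mT, lowest in mT replicate 1, as was Sp9.

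The nearest to Mab21l2 were Meox2 at 0.568, Trank1 at 0.632 and Alx4 at 0.633. The nearest to Bcl11b were the sphingosine-1-phosphate receptor gene S1pr3 at 0.228, the syntaphilin gene Snph at 0.245 and Erp27, of the endoplasmic reticulum, at 0.35. S1pr3 had 2.15 ± 0.7 CPM in mG and 65.4 ± 22.2 CPM in mT, a smaller contrast in counts than that of Bcl11b; on the log2 scale with its prior count, values near 1 read are drawn together. Snph, in contrast, was as rare as Bcl11b, with 0, 2 and 1 counts in mG and 38, 89 and 54 in mT. Among the 4 regulators, Sp9 and Mab21l2 were the most alike at 0.753, and Pou3f4 and Bcl11b the least at 1.56. Each of the 4 had closer matches outside the group of 4 than within it. Far more genes were candidates outside the group, so this does not tell how the 4 relate to each other.

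**Figure D5:**
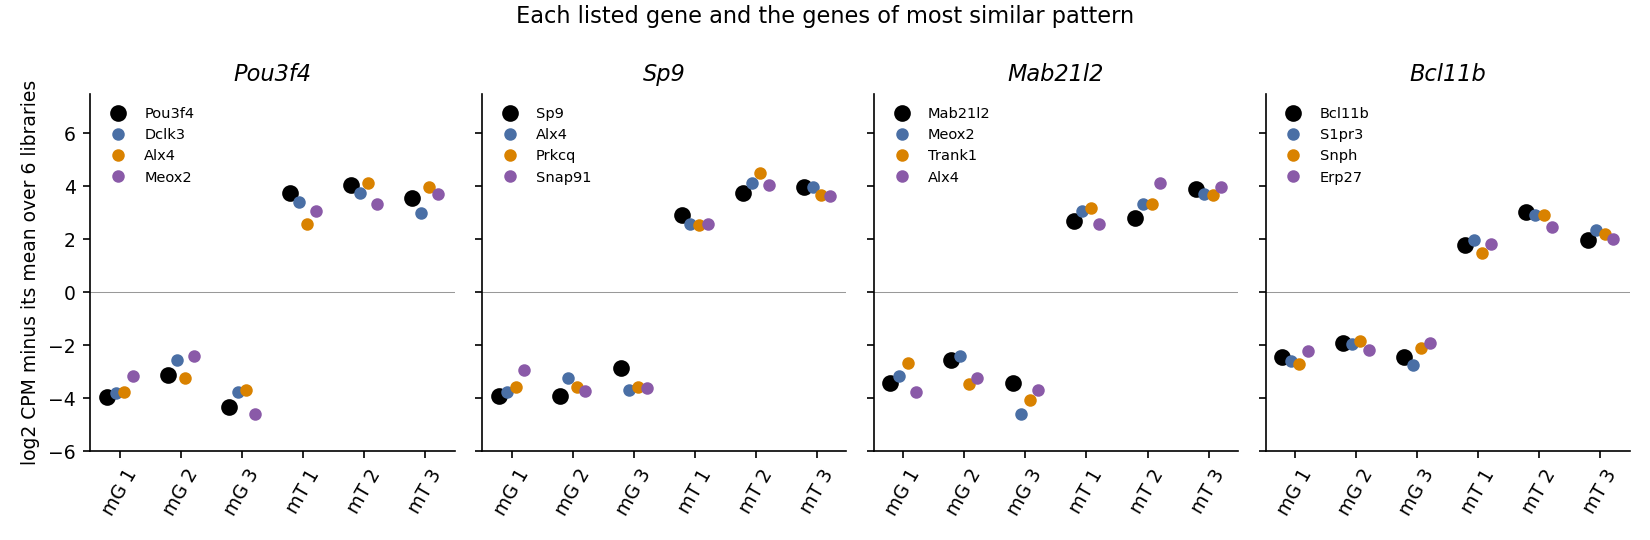
Log2 CPM minus the mean over the 6 libraries, for Pou3f4, Sp9, Mab21l2 and Bcl11b (black) and the 3 genes nearest to each (colours), by library with mG left of mT. In each panel the 4 genes lie below 0 in every mG library and above 0 in every mT library. The coloured genes differ from the regulator of their panel by 0.228 to 0.633 (root mean square difference).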

How the data were processed

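Per the submitters' processing notes, the tools were cutadapt 5.0, Trimmomatic 0.38, FastQC 0.11.9, STAR and edgeR 4.0. Build and counter: not given in the sources used here. Libraries were unstranded, per the labels' protocols. The authors deposited 1 table with raw counts per gene and library, and RPKM, which per the file headers scale counts by listed length and depth. The deposited TMM signal, the authors' likelihood-ratio score, p-value and −log10 p-value were not used; the authors' log2 fold change was. Columns were matched to samples by library name.

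Counts were fitted in edgeR 4.0.16 (R 4.3.3; TMM, filterByExpr with a minimum count of 10, quasi-likelihood test, Benjamini-Hochberg adjustment over 13566 genes at 0.05), tested on simulated data. Log2 CPM use a prior count of 2. Alternatives used limma 3.58.1, DESeq2 1.42.0, other normalizations and filters, a block and each library left out. Rows without a symbol (0.013% to 0.0352% of counts) were kept, as each has a gene identifier. Members and lists were chosen with earlier results of these data known, and the motifs after the sequences were seen. Named genes were the 5 regulators, their relatives, called genes of the lists or otherwise the 3 most abundant, and the 3 nearest patterns. Efnb2, Epha4, Coch, Eya1, Rspo2, Tcf21 and genes named as not listed are additions, as are Lrba and the other neighbours.

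Replicate numbers 1 to 3 occur in both groups. Deviations from group means of same-numbered mG and mT libraries correlated at 0.24, 0.18 and 0.30 across genes, each above 0.1, so libraries with 1 number count as a pair; the pairing comes from the data, not the labels. Differently numbered mG and mT libraries correlated at -0.18 to -0.05. Centring on group means ties these values to those of same-numbered libraries, so they add no separate evidence of pairing. The test itself has no block, and adjusted p-values are from this unblocked test unless another fit is named. In the quasi-likelihood test blocked on replicate number, the adjusted p was 0.0391 for Tbx15, 0.231 for Mab21l1 and 0.174 for Pou6f1. For Eya1, Lhx9, Efnb2, Nr2f2, Coch and Tcf21 this blocked test gave an adjusted p of 0.0805, 0.0834, 0.109, 0.124, 0.166 and 0.211, in that order.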

Additional observations from a re-analysis of the deposited data

How the results depend on the processing

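The number of genes past the test was 123. It was 960 with DESeq2, 46 without both libraries numbered 2, 20 to 362 when 1 library was left out, and 108 with the replicate block. No relative of the 5 regulators passed with the block or any other setting, except 2 (Mab21l1 and Pou6f1) without mG replicate 2, so the range over single omissions was 0 to 2. Of the associated genes 1 passed, and 1 with the block, 11 with DESeq2, 0 without both libraries numbered 2 and 0 to 5 when 1 library was left out; Tbx15 lost its call without mG replicate 3 and without each mT library. The fitted log2 fold changes of the 4 listed regulators were below 0 in every fit run, but the counts that chose these genes fixed this sign. Only the size of the fitted values is therefore described. Leaving out 1 library gave -8.99 to -7.82 for Pou3f4, -11.53 to -8.30 for Sp9, -10.62 to -7.56 for Mab21l2 and -8.72 to -6.43 for Bcl11b. Without both libraries numbered 2 they were -8.86, -8.23, -10.82 and -8.23, in that order. A prior count of 2, an alternative added after seeing the data, gave -7.46, -7.10, -6.29 and -4.61. Limma-voom gave -6.15 for Bcl11b. With 0 to 6 reads per mG library, depth limits how low the mG levels of these genes can be shown to be, and no value under any setting exists for Sp8.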
